A study of Mus musculus with 12 samples.

Results

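Ribosome biogenesis factors are the proteins that transcribe ribosomal RNA, modify and cut it, and assemble it into ribosomal subunits. Here 9 genes of this kind were followed through 3 candidate lists that the authors deposited: mRNAs captured with the microRNA Mirlet7d, non-coding RNAs (ncRNAs) captured with it that are associated with promoters, and genes nearest to sites of its association with chromatin. The genes were Rrn3, Polr1c, Nhp2, Nop56, Nolc1, Rrp9, Nat10, Rrp12 and Nop2, out of 5714 gene names in the 3 lists, and they were chosen because they have an entry, so that being listed is not a result. They gave 10 of the 8682 entries.

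Ribosome production starts in the nucleolus, where RNA polymerase I (Pol I) transcribes a long precursor RNA. Small nucleolar ribonucleoproteins (snoRNPs) of the box C/D and box H/ACA classes then guide its methylation and pseudouridylation, and further factors process it into the RNAs of the small and large subunits. These genes are active in most dividing cells, epithelial cells included. Mirlet7d belongs to the let-7 family, microRNAs known for pairing with their targets through the seed, bases 2 to 8.

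The cells were MLE-12, a mouse lung epithelial line that was established with the SV40 large T antigen driven by a surfactant protein C promoter. For the pull-down, MLE-12 cells were transfected with 25 nM of biotinylated Mirlet7d and harvested after 48 h, and the RNA held on streptavidin beads was sequenced beside an input library taken with no capture step. For ChIRP-seq, chromatin of MLE-12 cells was incubated for 4 h with 150 pmol of biotinylated oligonucleotides tiling mature Mirlet7d, and the DNA attached to the captured RNA was sequenced. The ChIRP-seq sample carries the label gof with the value Mirlet7d, while its protocol describes no transfection. With 1 library in each group, replicate error is unknown throughout and conditions could not be tested against each other. No capture with a Random microRNA or unrelated probe was analysed here, so association with Mirlet7d and capture without it cannot be told apart. Of 12 lung epithelial marker genes, Lamp3 was in the mRNA list and 5 were nearest to a peak (Cdh1, Krt18, Nkx2-1, Scgb1a1 and Sftpb). Of 8 markers of other cells, Col1a2 and Pdgfrb were in the mRNA list and Cd68 in the promoter-associated list. Another 3 (Col1a1, Pecam1 and Vim) were nearest to a peak. Of protein-coding genes, 7.15% were in the mRNA list, 6.56% in the promoter-associated list and 13.3% nearest to a peak. The counts say nothing of cell type, since candidate lists do not give the levels of genes left out.

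The labels do not say which arm of Mirlet7d was used. Both mature arms are shown because the tables rest on capture by or for this RNA. They are from RefSeq (build GRCm38.p6, minus strand) at chr13:48536078-48536099 and chr13:48536024-48536045, and capitals mark the seed.
mmu-let-7d-5p: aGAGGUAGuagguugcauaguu
mmu-let-7d-3p: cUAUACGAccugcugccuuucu

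Both pull-down lists hold RPKM of the input and the pull-down, and a fold, their ratio as the authors deposited it. RPKM are reads scaled to library size and to the length of the span, introns included. The lowest listed fold was 2.5, so both lists were selected on the quantity they report. The mRNA list had 1964 transcripts with a median fold of 4.93, and the promoter-associated list 2432 ncRNAs with a median fold of 5.13 (quartiles 3.3 and 10.0). For each column, a library size was sought under which RPKM times length came nearest to whole reads, which gave back the read numbers. Intervals below are exact 95% intervals of the fold from these numbers and cover counting error only. The library sizes behind the RPKM, in reads and rounded, were 23850000 for the input and 42020000 for the pull-down in the mRNA list, and 9660000 and 14970000 in the ncRNA list, so RPKM is compared within a list only. ChIRP-seq gave 4286 peaks with a MACS score, the authors' own value, from 30.01 to 3100 with a median of 34.3. All coordinates of entries and peaks are those of mm9 as deposited.

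Of the 9 genes, Nhp2 and Rrp9 were in the mRNA list, where 7.15% of 21031 protein-coding RefSeq genes had an entry. Nat10, Nhp2, Rrn3 and Polr1c were in the promoter-associated list, which held 6.56% of these genes. Nolc1, Nop2, Rrp12 and Nop56 were nearest to a peak, as were 13.3% of protein-coding genes. Nhp2 alone was in 2 lists. The other 8 were in 1 list each and absent from the remaining pair, by the gene names that the lists give. Since the genes were picked from these lists, their shares are not set against the percentages.

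**Figure D1:**
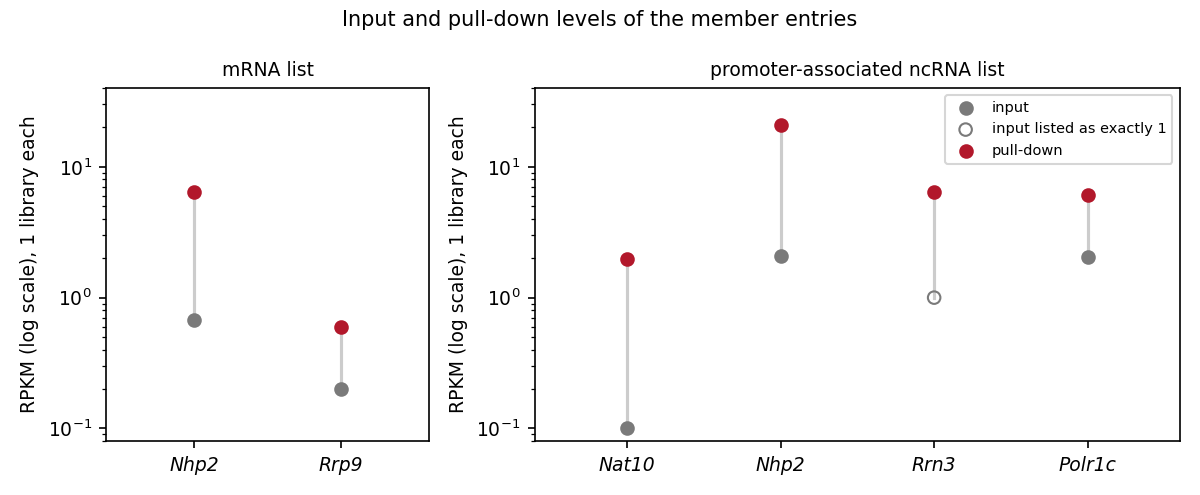
RPKM on a log axis of the 6 pull-down entries of the member genes, with grey points for the input library and red points for the pull-down library. Pull-down lies above input in each, as listing required, from 2.94-fold for Polr1c to 19.38-fold for Nat10, and the open point marks the Rrn3 input, listed as exactly 1.

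Rrn3 and Polr1c serve transcription by Pol I. Rrn3 (also called TIF-IA) brings Pol I to the ribosomal RNA promoter. The promoter-associated ncRNA of Rrn3, NONMMUT025577 at chr16:13780801-13782922, spans 2121 bases. It was listed at 1 RPKM in the input and 6.46 in the pull-down, a fold of 6.46 with 205 pull-down reads. An input of exactly 1 RPKM over this span would be 20.5 reads, which is not a whole number. The same value stands for 457 of the 2432 promoter-associated ncRNAs (18.8%), so for Rrn3 the fold restates the pull-down level and has no interval. By fold it was above 60.8% of the list, a place that rests on the same input of 1.

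Polr1c encodes a subunit that Pol I shares with RNA polymerase III. Its promoter ncRNA, NONMMUT029821 at chr17:46387038-46387942, is short with 904 bases. It had 2.06 RPKM in the input (18 reads) and 6.06 in the pull-down (82 reads), a fold of 2.94. Read numbers of ncRNAs were even more often than not (79.2% in the input, 66.8% in the pull-down), so intervals for them count read pairs, here 9 and 41. The interval ran from 1.41 to 6.88 and so reached below the listing limit, and only 16.7% of the list had a lower fold. At a distance of 3172 bases lay the mRNA candidate Lrrc73, with 25.19-fold at an input of 0.027 RPKM.

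The promoter of Rrn3 is shown because an ncRNA associated with it was captured and because it holds the letters CACGTG, a form of the E-box. These letters stand in a pair of places (bases -215 to -210 and -48 to -43 from the TSS), which are in capitals. The 250 bases before the transcription start site (TSS) are from RefSeq, build GRCm38.p6, chr16:13780449-13780698, plus strand. The entries above are in mm9, and positions were not converted between the builds, so overlap of the ncRNA with the bases shown is not known.
Rrn3 upstream: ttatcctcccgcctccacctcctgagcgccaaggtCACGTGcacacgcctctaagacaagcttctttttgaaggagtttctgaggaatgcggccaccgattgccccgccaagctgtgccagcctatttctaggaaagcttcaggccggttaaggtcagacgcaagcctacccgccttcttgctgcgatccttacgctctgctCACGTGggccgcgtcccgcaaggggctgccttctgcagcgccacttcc

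Nhp2, Nop56 and Nolc1 belong to the snoRNPs or attend to them. Nhp2 is a core protein of box H/ACA snoRNPs, which guide pseudouridylation, and of telomerase. It had the best measured entries among the 9 genes. Its transcript ENSMUST00000127405.1 (chr11:51433237-51437216) had 0.674 RPKM in the input, from 64 reads, and 6.45 in the pull-down, from 1079 reads. The fold of 9.57 had an interval of 7.43 to 12.5 and exceeded 72.5% of the mRNA list, and the pull-down level exceeded 97.3%. The promoter-associated ncRNA of Nhp2, NONMMUT009664 (chr11:51433273-51436931), had 2.07 RPKM in the input, from 73 reads, and 20.8 in the pull-down, from 1140 reads. Its fold was 10.08 with an interval of 7.13 to 14.3.

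The 2 Nhp2 entries do not count as independent observations. The ncRNA lies wholly inside the mRNA span, starting 36 bases after it and ending 285 bases before its end, and covers 91.9% of it. Read numbers for the mRNA and the ncRNA were 64 and 73 in the input and 1079 and 1140 in the pull-down, and the same reads can stand in both. The ncRNA has more reads in both libraries although its span lies inside, so the 2 lists did not count all reads over whole spans alike. How the counting differed is not given in the sources used here. The mRNA span also overlaps that of Rmnd5b by 41 bases, which was itself listed at 2.70-fold. Whether counting used the strand is not given in the sources used here, so reads from the ncRNA, Nhp2 and, in that stretch, Rmnd5b cannot be told apart.

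The promoter of Nhp2 is shown as that of the 1 gene captured in both lists. These 250 bases before its TSS (RefSeq, GRCm38.p6, chr11:51619523-51619772, plus strand) hold no CACGTG and no seed match, so none is in capitals.
Nhp2 upstream: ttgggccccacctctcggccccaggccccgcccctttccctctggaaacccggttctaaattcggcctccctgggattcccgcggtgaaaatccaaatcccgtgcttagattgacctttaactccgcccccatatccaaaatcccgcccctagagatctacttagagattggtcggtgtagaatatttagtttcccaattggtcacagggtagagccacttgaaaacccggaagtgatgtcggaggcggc

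Nop56 is a core protein of box C/D snoRNPs, which guide ribose methylation. It was in neither pull-down list. Its peak, at chr2:130097968-130098541, had a score of 47.38, higher than 87.6% of all peaks, and was narrower than most with 574 bases. The peak is annotated as intergenic, and its centre lies at -1894 bases from the TSS, with edges at -2181 and -1607. No other peak lay within 100 kb, and the next, nearest to Adam33, was 785841 bases away.

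A pulled-down ncRNA mapped inside Nop56. The entry NONMMUT039854, which the promoter-associated list gives to Snord57, a box C/D snoRNA gene, lies at chr2:130101532-130102002, from 1384 to 1854 bases after the Nop56 TSS and 2991 bases beyond the peak. It had 15.4 RPKM in the input (70 reads) and 49.2 in the pull-down (346 reads), a fold of 3.19 with an interval of 2.21 to 4.73. Its input level was above that of each of the 4 ncRNA entries of the member genes. Whether counting used the strand is not given, so reads from this ncRNA and from Nop56 itself cannot be told apart. For comparison, the nearest listed ncRNA was 10630 bases from the Nop2 peak, 45265 from the Rrp12 peak and 104165 from the Nolc1 peak. The share of all peaks with a listed ncRNA as near as at Nop56 was not computed. The neighbouring gene Idh3b had 2 promoter ncRNAs of 3.46- and 3.72-fold, both with an input of exactly 1 RPKM.

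Nolc1 (Nopp140) is a phosphoprotein of nucleoli and coiled bodies that binds snoRNPs. It had the highest score among the 9 genes, 67.06, at chr19:46149467-46150808, rank 130 of 4286 and rank 20 among the 405 promoter peaks, whose median was 36.1. The peak is 1342 bases wide, against a median of 646, and its centre lies at -200 bases from the TSS. Its edges, at -871 and 471, enclose the start site. The region around it was rich in peaks. Another 7 peaks lay within 100 kb, with scores from 30.3 to 64.31, among them promoter peaks at Pprc1 (48.98) and Gbf1 (50.49) and one in the first intron of Ldb1 (64.31). Within 1 Mb there were 40 other peaks, more than around 90.8% of all peaks, where the median was 8.

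The Nolc1 promoter is shown because the peak covers it by distance from the TSS, whose place may differ between annotations. The 250 bases (RefSeq, GRCm38.p6, chr19:46075597-46075846, plus strand) hold no CACGTG.
Nolc1 upstream: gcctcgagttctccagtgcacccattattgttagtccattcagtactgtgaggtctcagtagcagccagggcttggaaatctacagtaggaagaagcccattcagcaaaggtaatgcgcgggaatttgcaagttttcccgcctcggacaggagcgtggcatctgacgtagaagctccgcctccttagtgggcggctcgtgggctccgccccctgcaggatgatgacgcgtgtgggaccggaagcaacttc

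Rrp9, Nat10 and Rrp12 act on the small subunit. Rrp9 (U3-55k) is a protein of the U3 snoRNP, which is needed for the first cuts of the precursor. Its transcript ENSMUST00000047721.8 at chr9:106379600-106387755 had 0.2 RPKM in the input (39 reads) and 0.601 in the pull-down (206 reads). The fold of 3.01 exceeded 23.1% of the mRNA list, and its interval of 2.12 to 4.34 included the listing limit. The intervals of Nhp2 and Rrp9 in this list did not overlap. The nearest other candidates were the mRNA of Gpr62 (6.13-fold), 11329 bases away, and 2 ncRNAs at Gpr62 with 13.16- and 13.17-fold.

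Nat10 acetylates cytidines of small subunit ribosomal RNA and other RNAs. The promoter-associated ncRNA of Nat10, NONMMUT038857 at chr2:103597256-103601352, had the highest fold of the 9 genes and the lowest ncRNA level. It had 0.101 RPKM in the input and 1.96 in the pull-down, a fold of 19.38 that was above 88.9% of the list. Only 4 reads (2 pairs) stood in the input, against 120 (60 pairs) in the pull-down, and the interval ran from 5.13 to 164. It held the whole interval of the Nhp2 ncRNA (7.13 to 14.3), so the first place of Nat10 over Nhp2 is not settled. It also overlapped that of the Polr1c ncRNA (1.41 to 6.88), but overlap does not show that folds are alike, and their difference was not tested. With reads counted singly, the Nat10 interval (7.37 to 72.2) still overlapped that of Nhp2 but no longer that of Polr1c (1.75 to 5.21). The intervals of the Nhp2 and Polr1c ncRNAs did not overlap. Within 100 kb of the Nat10 entry 8 more ncRNAs were listed, all on 1 side of it, from 2.52- to 30.42-fold, of which 2 are associated with Caprin1.

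Of the members' entries with an interval, 1 of 2 in the mRNA list and 2 of 3 in the promoter-associated list lay above the listing limit of 2.5. Over the lists this share was 62.2% of 864 mRNA entries and 52.1% of 1878 ncRNA entries. With so few entries, chosen from the same lists, nothing is read from the comparison.

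**Figure D2:**
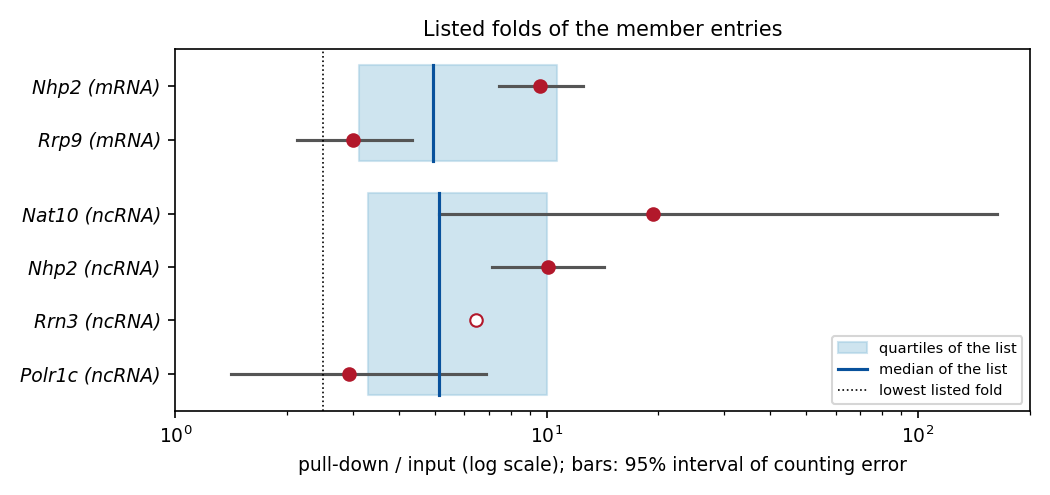
Deposited fold of the 6 entries on a log axis, with exact 95% intervals of counting error as bars, and the median and quartiles of each whole list in blue. Nat10 had the highest fold (19.38) and the widest interval, Nhp2 lay near the upper quartile in both lists, and Rrn3 (open point) has no interval.

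Rrp12 is a factor of late small subunit maturation and of the export of pre-ribosomal particles. Its peak at chr19:41972874-41973774 had a score of 58.55, rank 214, and a width of 901 bases. The centre lies at -2681 bases from the TSS, and the annotation places it on a (CA)n simple repeat. How reads with several possible places were treated is not given in the sources used here. The nearest other peak, at Frat2 (31.16), was 41327 bases away. The Rrp12 peak lies on chromosome 19 like the Nolc1 peak, but in a stretch with 8 other peaks within 1 Mb, the median of all peaks.

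Nop2 (NSUN1) methylates large subunit ribosomal RNA. Its peak at chr6:125081513-125082909 had a score of 64.75, rank 149, and was the widest of the 4 with 1397 bases. The annotation places it in the first intron, 310 bases after the TSS, and on a CpG island, and its edges, at -388 and 1008, enclose the start site. Within 100 kb lay 3 other peaks, nearest to Chd4 (57.49), Gapdh (35.67) and Mrpl51 (35.43), and within 1 Mb 26. Captured RNAs stood nearby as well, with mRNAs of Iffo1 (12.7-fold at 0.023 RPKM input) 12350 bases away and an ncRNA at Gapdh (3.71-fold). The Nop2 promoter (RefSeq, GRCm38.p6, chr6:125131633-125131882, plus strand) is shown because the peak covers it by distance from the TSS and because it holds 1 CACGTG, at -60 to -55, in capitals.
Nop2 upstream: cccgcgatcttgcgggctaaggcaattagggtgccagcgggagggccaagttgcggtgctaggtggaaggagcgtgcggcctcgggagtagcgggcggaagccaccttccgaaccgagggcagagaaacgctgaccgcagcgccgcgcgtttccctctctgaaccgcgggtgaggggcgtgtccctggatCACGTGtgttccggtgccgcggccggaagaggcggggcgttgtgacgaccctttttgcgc

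**Figure D3:**
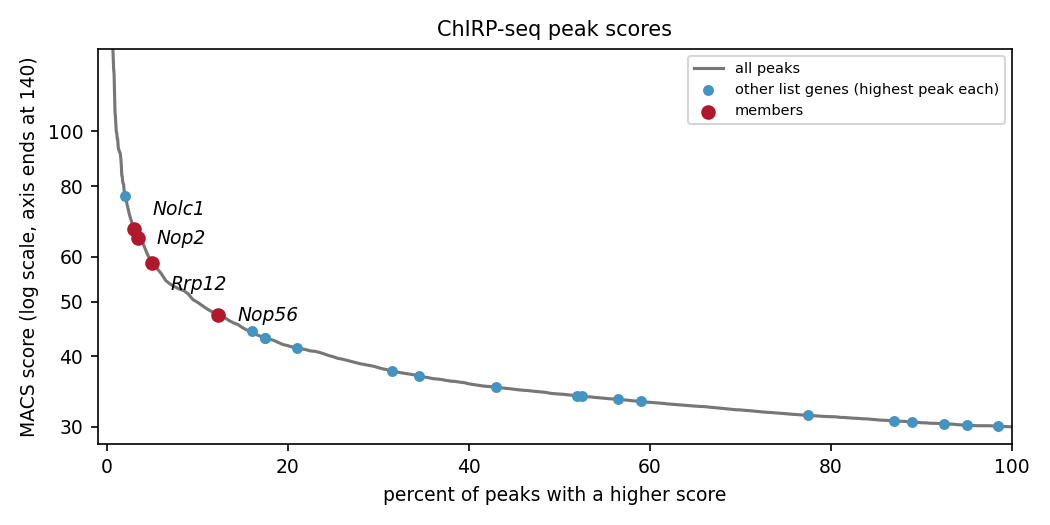
MACS score on a log axis, cut off above the highest listed gene, against the percent of peaks with a higher score. The 4 member peaks (red) range from 47.38 for Nop56 to 67.06 for Nolc1, and blue points are the highest peak of each of the 18 other listed ribosome biogenesis genes.

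**Figure D4:**
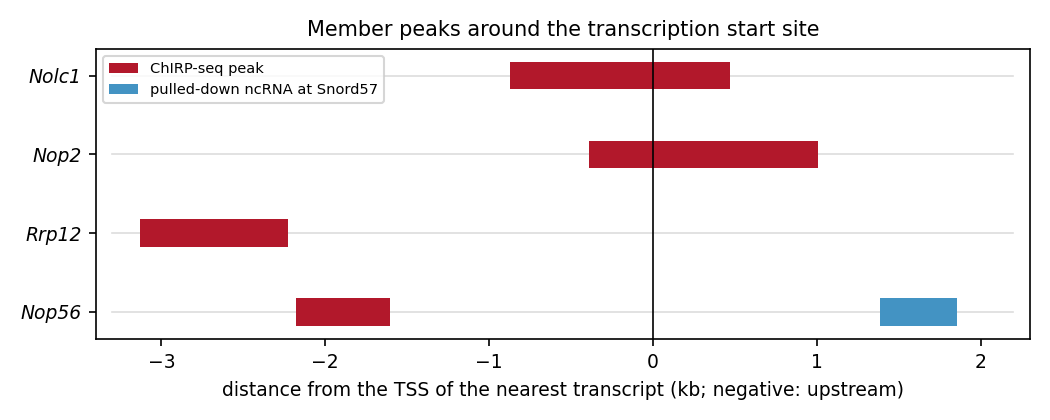
Spans of the 4 member peaks as distance from the TSS of the nearest transcript in kb, negative upstream. The peaks of Nolc1 and Nop2 enclose the TSS, those of Rrp12 and Nop56 lie upstream of it, and the ncRNA listed for Snord57 (blue) lies inside Nop56.

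Promoter windows of RefSeq, 250 bases before to 50 after the TSS, were found for 8 of the 9 genes. All 8 had more CpG dinucleotides than the median of 7 over 32851 windows, from 18 at Nhp2 and Nolc1 to 40 at Polr1c. The match to the 5p seed, CTACCTC on either strand, was in 0 of the 8 windows and in 3.85% of all windows. The shorter match TACCTC, which CTACCTC contains, was also in 0 of 8 and in 10.0% of all, and the match to the 3p seed, TCGTATA, in 0 of 8 and 0.21%. CACGTG, which reads the same on both strands, was in 2 of 8 (Nop2 and Rrn3) and in 7.15% of all windows. Over 147 windows of a wider ribosome biogenesis list it was in 28 (19.0%). The 32851 windows are more than the 21031 protein-coding genes, so their base is not that of the gene shares. CACGTG itself holds a CpG, and no comparison with windows of like CpG number was made. Other forms of the E-box were not searched. A match is only a run of letters, and the search says nothing of binding.

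The wider list held 155 genes, sorted by role, and 45 of them (29.0%) had an entry in at least 1 of the 3 lists, beside 24.2% of protein-coding genes. In the mRNA list there were 9 (5.81%, beside 7.15% of protein-coding genes), in the promoter-associated list 16 (10.3%, beside 6.56%) and nearest to a peak 22 (14.2%, beside 13.3%). The 9 member genes are part of the 155 and were picked for having an entry, which raises these shares. Without them the counts were 7, 12 and 18, and no excess over protein-coding genes is read from the shares. Over entries, the list median was 7.15-fold in the mRNA list against 4.93 for all its entries, 5.20 against 5.13 in the promoter-associated list, and a score of 33.9 against 34.3 for peaks. With only the highest entry of each gene, the mRNA median was 4.72 against 4.84 for all genes of the list and the peak median 36.1 against 34.9, so the direction turned in both. The promoter-associated median was then 5.99 against 5.41. The 28 peaks of these genes, among them those of the member genes, included 4 at promoters (14.3%, beside 9.45% of all peaks). Within 10 kb of a TSS lay 60.7% of the 28, against 42.6% of all peaks. All 4 member peaks, of genes picked for having an entry, lie within 10 kb, so no excess is read from either share of peaks.

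By role, and beside the same 24.2%, Pol I transcription had 5 of 15 genes with an entry, box C/D snoRNPs 1 of 7 (Nop56 alone), box H/ACA snoRNPs 4 of 6 and nucleolar scaffold proteins 2 of 5. Among small subunit factors 16 of 60 had an entry and among large subunit factors 17 of 62. These counts are small, include in each role member genes picked for having an entry, and were not tested against the 24.2%. The box H/ACA genes were Nhp2, Dkc1, which encodes the pseudouridine synthase (2.63-fold at an input of exactly 1 RPKM), and the assembly factors Shq1 and Naf1, with peaks of 30.39 and 30.22 near the lowest listed score. Surf6 was the other scaffold gene, with a promoter peak of 34.06 centred 8 bases from the TSS.

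Among the other genes of the list, Dnajc21, a cofactor of late large subunit maturation, had the highest mRNA fold with 64.67 (input 0.009 RPKM), and its promoter ncRNA had 17.78 (interval 10.8 to 29.4). It and Nhp2 were the 2 genes in both pull-down lists. Polr1h, a small Pol I subunit, had 28.9-fold from 1 input read (4.87 to 1143). Mphosph10, of the U3 complex, had 17.79 (9.68 to 35.5), Ltv1 4.72 and Rrs1 3.75. In the promoter-associated list Riok3, a kinase of the small subunit pathway, had 169.62 from 1 input read (15.0 to 3391). Wdr46 had 14.17 from 1 input and 22 pull-down reads, with an interval of 1.03 to 306. Nsun5 had 9.29 at an input of exactly 1 RPKM, and Tsr3 had 7.27 (1.75 to 62.3). Only 1 gene had a peak above that of Nolc1, the GTPase gene Gtpbp4 with 76.89 at -15867 bases from the TSS. It was followed by Polr1a (44.25), Emg1 (43.13), Bms1 (43.04) and Wdr18 (41.33), all below the Nop56 peak. By these gene names, none of the 155 was both nearest to a peak and in a pull-down list, although the ncRNA listed for Snord57 lies inside Nop56, which has a peak.

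**Figure D5:**
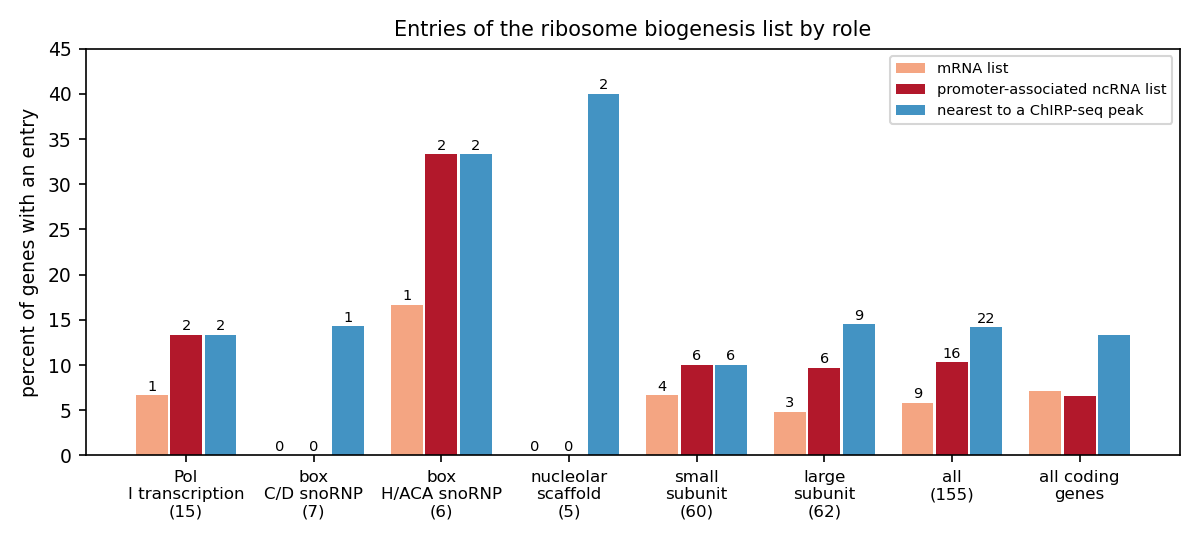
Percent of the genes of each role with an entry in the mRNA list, the promoter-associated ncRNA list or nearest to a ChIRP-seq peak, with the number of genes over each bar and the size of the role in brackets. Over all 155 genes the counts were 9, 16 and 22, and the bars at the right are the shares of all protein-coding RefSeq genes. The counts include the member genes, which were picked for having an entry.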

How the data were processed

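Single libraries of the pull-down, its input and ChIRP-seq were used, 3 of 12 in the series. Per the submitters' processing notes, the genome was mm9, and Bowtie2, FastQC, HOMER, SAMtools and bedtools (2.15 for the pull-down) are named for both assays, Trimmomatic and Picard 1.119 for the pull-down only, and MACS for ChIRP-seq only. The roles of these tools are not given there. RPKM values were deposited by the authors with 3 decimals, and the fold is the ratio of both as deposited. The peak score is the MACS score deposited by the authors. The deposited length equals end minus start, introns included. The labels give rRNA depletion and pre-amplification for the pull-down and input.

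Reads were recovered as RPKM times length times a library size, chosen for each column to bring the products nearest to whole reads. Away from inputs of exactly 1, 100% of the usable values were within 0.15 reads of a whole number in each of the 4 columns. Usable were 348 input and 126 pull-down values of the mRNA list, and 4091 and 3776 of the ncRNA list. The library sizes were chosen on these same values. Fold intervals are Clopper-Pearson (95%) on the pull-down share. NcRNA reads were halved to pairs, odd numbers being rounded up for the input and down for the pull-down, because 79.2% of input and 66.8% of pull-down numbers were even. In the mRNA list 55.1% and 50.5% were even, and reads were counted singly. Both ways of counting are given, at least by the lower bound, for the ncRNA entries of Nat10, Nhp2 and Polr1c only. Intervals of the mRNA list were not computed by pairs, which would widen them. PCR copies are not separable. Recovery and intervals were run on simulated independent counts, with no selection on fold and no read pairs. Coverage of the intervals for entries listed by their fold was therefore not checked.

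Names were matched to RefSeq (GRCm38.p6), used for names and promoter windows only, and 2 of 1509, 8 of 1624 and 16 of 3192 names in the mRNA, promoter-associated and peak lists stayed unmatched. Python 3.11.15, pandas 2.3.3 and scipy 1.17.1 were used. The 9 genes, the list of 155 and its roles were chosen with earlier results of these data known. All entries of the 9 genes were named, and of the other list genes the 5 with the highest fold or score in each list. Further genes (neighbours, Dkc1, Shq1, Naf1, Surf6, Snord57) were named after their values were seen, and the search for CACGTG was likewise added later. No test across samples was possible.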

Additional observations from a re-analysis of the deposited data

How the results depend on the processing

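Of 25 alternatives, 20 left the value within its interval or within 1.5 times, and 3 counts and 2 medians of ribosome biogenesis genes moved further or to the other side of the median of all. The 20 include settings that could hardly move a value. Among these were rounding, matching by accession and a least overlap for the Nhp2 spans, where the ncRNA lies wholly inside. The tally is therefore no measure of robustness. With a fold of at least 5 the mRNA list held 4 of the 155 genes (2.58%, beside 3.5% of protein-coding genes) and the promoter-associated list 9 (5.81%, beside 3.56%). With a score of at least 40, 9 genes were nearest to a peak (5.81%, beside 3.88%). These settings remove entries by construction. Within 10 kb of the TSS 16 genes were nearest to a peak (10.3%, beside 6.77%). Each of these counts includes member genes, which were picked for having an entry, so no excess over protein-coding genes is read from them. Matching by accession left 16 and 22 genes. It was not run for the mRNA list, whose identifiers are Ensembl transcripts.

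Rounding of RPKM could lower the folds of the 5 entries with an interval to no less than 19.3 (Nat10), 10.1 and 9.57 (Nhp2), 2.995 (Rrp9) and 2.94 (Polr1c). With reads counted singly, the lower bounds were 7.37 for Nat10, 7.95 for Nhp2 and 1.75 for Polr1c, and the Nat10 interval (7.37 to 72.2) then no longer overlapped that of Polr1c, whose upper bound was 5.21. An input over 0.01 RPKM and not exactly 1 removed Rrn3, leaving 5 of 6 entries, and leaving out repeats removed the Rrp12 peak, leaving 3 of 4. With the highest entry per gene, the list median was 4.72-fold in the mRNA list and a score of 36.1 for peaks, against 7.15 and 33.9 over entries. This setting and the search for the 3p seed were chosen after seeing the data. No paired analysis was possible because each group has 1 library. The Nat10 fold rests on 4 input reads, and its interval was the widest of the 5.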
